A study of Mus musculus with 6 samples.

Results

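The nuclear-encoded subunits of respiratory complexes II to V and cytochrome c were examined in neural stem and progenitor cells (NSC/NPCs) of the fetal mouse hypothalamus after prenatal exposure to high estradiol (HE) or to solvent (NC). Members were taken by symbol from the deposited table. They were Sdha to Sdhd, Cyc1, Cycs and the symbols that begin with Uqcr, with Cox4 to Cox8 or with Atp5, and genes of the mitochondrial genome were left out. This gave 49 of the 22048 genes in the table, of which 4 belong to complex II, 9 to complex III, 1 is cytochrome c, 18 belong to complex IV and 17 to complex V. All dams were C57BL/6 mice aged 8 weeks. HE dams were gavaged with estradiol valerate, an estrogen, at a daily dose of 100 μg/kg between E5.5 and E11.5, and NC dams received corn oil, although a sample label calls the NC cells untreated. Cells of male fetuses were isolated at E14.5, grown as neurospheres in medium with EGF and bFGF, and harvested at first passage. There were 3 HE and 3 NC samples, and each held pooled cells of 2 mice. The sources do not say whether the mice came from separate litters, so p-values measure only the spread between these samples.

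The respiratory chain of the inner mitochondrial membrane passes electrons to oxygen and pumps protons, and ATP synthase uses the resulting gradient to make ATP. Complex II (succinate dehydrogenase) feeds electrons from succinate into ubiquinone and is also an enzyme of the tricarboxylic acid cycle. Complex III passes them from ubiquinone to cytochrome c, complex IV (cytochrome c oxidase) from cytochrome c to oxygen, and complex V is the ATP synthase. All subunits of complex II are nuclear, whereas complexes III, IV and V also hold subunits made from mitochondrial DNA. Neural stem cells are known to rely much on glycolysis, and oxidative phosphorylation gains weight as they differentiate.

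Of the 49 members, 46 passed the filter on low values and were tested with limma on log2(RPKM + 0.1), where RPKM is the read count divided by gene length and by the sample total. The filter asked for the rate of 10 reads in a median library in at least 3 samples and kept 13952 genes. The 3 members left out were Cox7b2, Cox8b and Cox8c. The mean level of the tested members ranged from 1.77 RPKM to 694 RPKM, and 25 of the 49 had a mean of at least 100 RPKM. Their median level in NC was 95.9 RPKM, against 6.04 RPKM over all tested genes. Most members are short, with a median gene length of 1475 bases against 4113 bases. In the RefSeq annotation of GRCm38.p6, 15 of the 49 overlapped another gene, and pseudogenes were named after 8 members, among them Cycs, Uqcrh, Cox7c and Atp5k. The library is described as strand-specific in the methods, but the use of strand in counting is not given in the sources used here, so values of these members could include or lose reads shared with those loci.

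Reads counted on genes ranged from 16078675 to 19137059 per sample. HE3 was the shallowest library and stood apart, with a sum of RPKM over all genes of 412361 against 340524 to 367430 in the others. Its median over all tested genes lay 0.17 below the NC mean on the log2 scale, whereas the other 5 samples lay between -0.02 and 0.02. Of the neural progenitor markers, Sox2 (97.3 to 209 RPKM, lowest in HE3) and Nes (154 to 247 RPKM) were high in all 6 samples, as were Vim and Fabp7. Others of that list were low throughout, such as Pax6 (2.30 to 4.55 RPKM), Hes5 (2.14 to 6.18 RPKM) and Msi1 (2.48 to 7.59 RPKM). The astrocyte marker Gfap (195 to 754 RPKM) was high too, so these levels do not single out progenitors. For the members, HE3 gave the highest value of the 6 samples in 36 of 46, so the leading differences below are given without it as well.

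The promoters of respiratory genes are known for sites of the factors NRF1, GABP (an ETS factor), YY1 and CREB. RefSeq promoters of GRCm38.p6, each of 300 bases from 250 before to 50 after the start, were matched for 37 of the 49 members. They were searched on both strands for exact cores, CCGGAAG for ETS/GABP, GCATGCGC for NRF1, ATGGCGGC for YY1 and TGACGTCA for the cAMP response element. The ETS/GABP core stood in 11 members (29.7%) and in 9.12% of all 27025 promoters. The NRF1 core stood in 8 members (21.6%) and in 2.80% of all promoters. The cAMP response element stood in 2 members, Cycs and Uqcrfs1, or 5.41% against 1.88%. The YY1 core stood in 0 of the 37 members and in 2.38% of all promoters. Any of the 4 cores was held by 40.5% of the members and by 14.6% of all promoters. Median GC content was 56.3% in the members' promoters and 52.7% in all, and no test was made of these shares.

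The 200 bases before the start are shown for the member of each complex with the most matches there (of tied members the one with the lowest p of the expression test), and for Cox7a1, which was lower in every HE sample. Each sequence runs 5′ to 3′ on the strand of its gene in GRCm38.p6, and capitals mark the matched cores. The NRF1 core read on both strands overlaps itself in Cox6a1 and Atp5k, which gives a longer capital run there.
Sdhb, chr4:140961071-140961270, plus strand: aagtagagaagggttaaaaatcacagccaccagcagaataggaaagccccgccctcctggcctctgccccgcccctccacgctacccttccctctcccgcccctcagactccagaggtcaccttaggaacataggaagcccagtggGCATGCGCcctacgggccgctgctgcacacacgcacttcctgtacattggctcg
Uqcrh, chr4:116075071-116075270, minus strand: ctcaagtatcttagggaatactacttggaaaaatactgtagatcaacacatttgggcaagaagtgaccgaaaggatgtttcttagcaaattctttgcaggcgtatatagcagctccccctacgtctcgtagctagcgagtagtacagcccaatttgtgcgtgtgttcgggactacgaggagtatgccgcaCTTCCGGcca
Cycs, chr6:50566570-50566769, minus strand: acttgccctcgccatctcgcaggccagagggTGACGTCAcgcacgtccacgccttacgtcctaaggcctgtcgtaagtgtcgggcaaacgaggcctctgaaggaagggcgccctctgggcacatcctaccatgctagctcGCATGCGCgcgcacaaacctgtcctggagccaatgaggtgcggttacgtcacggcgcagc
Cox6a1, chr5:115348959-115349158, minus strand: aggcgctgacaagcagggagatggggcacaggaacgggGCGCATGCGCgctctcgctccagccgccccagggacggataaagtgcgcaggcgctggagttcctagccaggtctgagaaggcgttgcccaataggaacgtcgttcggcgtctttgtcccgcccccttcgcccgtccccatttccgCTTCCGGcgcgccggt
Atp5k, chr5:108434400-108434599, minus strand: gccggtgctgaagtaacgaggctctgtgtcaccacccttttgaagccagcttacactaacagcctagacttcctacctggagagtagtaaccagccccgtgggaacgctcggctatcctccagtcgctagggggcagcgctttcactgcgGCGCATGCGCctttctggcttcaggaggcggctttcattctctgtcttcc
Cox7a1, chr7:30183971-30184170, plus strand: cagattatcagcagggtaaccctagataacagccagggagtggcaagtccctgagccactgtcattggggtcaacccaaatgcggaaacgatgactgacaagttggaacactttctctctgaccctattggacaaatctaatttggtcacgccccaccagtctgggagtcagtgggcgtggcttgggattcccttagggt

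In these sequences the NRF1 core began 54 bases before the start of Sdhb, 60 before that of Cycs and 160 before that of Cox6a1. The ETS/GABP core lay on the opposite strand, from 10 to 4 bases before the start of Uqcrh and from 16 to 10 before that of Cox6a1. Cycs also held the cAMP response element core from 169 to 162 bases before its start. In Cox7a1, a muscle isoform, none of the 4 cores was found in this window. These matches describe letters in the reference and not binding in these cells.

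Most subunits had a moderately higher mean RPKM in HE than in NC, but no member passed the adjusted threshold. Of the 46 tested members, 43 had a log2 fold change above 0 and 3 below, against 43.8% above 0 over all tested genes. The members' median log2 fold change was 0.43, a 1.35-fold higher level, against -0.06 over all genes. As a share of the reads counted on genes, all members held 0.996%, 0.990% and 1.21% in NC1 to NC3, and 1.30%, 1.27% and 1.72% in HE1 to HE3. The shares of the groups did not overlap, with NC3 nearest to the HE samples and HE3 above all. No member reached an adjusted p-value (Benjamini-Hochberg over all 13952 genes, limma) of 0.05, and the lowest was 0.195. Over all genes 0% passed this threshold, with or without a further cutoff of 1 on the log2 fold change, and voom on the read counts gave 0 calls too. In bulk samples, more RNA per cell and more cells of a type with high levels cannot be told apart.

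At an unadjusted p under 0.05, 20 members were higher in HE, while 8.68% of all tested genes were, and 1 member (Cox7a1) was lower, while 11.8% of all genes were. All HE values exceeded all NC values in 29 members, against 14.8% of all genes, and lay below them in 2 members (Cox4i2 and Cox7a1), against 17.9%. Without HE3, the direction of the split was 43 members higher and 3 lower, and the median log2 fold change was 0.26 (1.20-fold). In that fit 15 members were higher at an unadjusted p under 0.05, while 9.35% of all genes were. Without NC1 or without NC2 the count of 20 became 6, while the share of all genes became 4.39% and 4.78%. HE1 and HE2 were both above every NC value in 30 of 46 members, but the share over all genes was not counted for this split. Per sample, the median of the members relative to the NC mean on the log2 scale was -0.09, -0.08 and 0.14 in NC1 to NC3 and 0.27, 0.24 and 0.73 in HE1 to HE3. NC3 was the highest NC sample in 35 of 46 members.

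**Figure D1:**
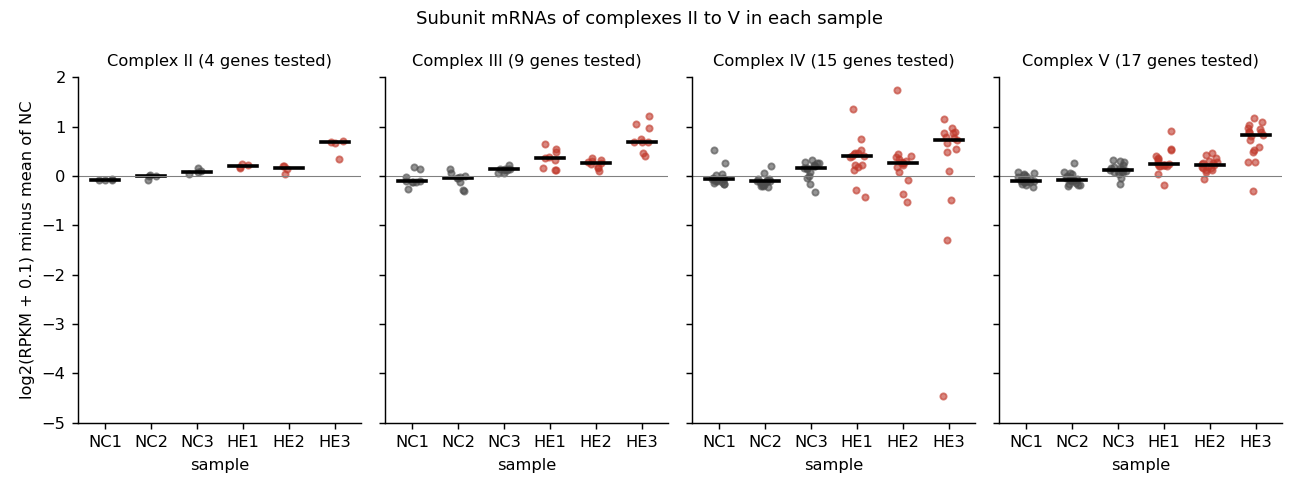
Level of each tested member in each sample as log2(RPKM + 0.1) minus the mean of the 3 NC samples, for complexes II (4 genes), III (9), IV (15) and V (17). Points are genes (grey NC, red HE) and black lines are medians. The medians of all complexes are above 0 in HE1 and HE2 and highest in HE3, and complex IV alone has genes far below 0, the lowest being Cox4i2 in HE3.

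The complexes differed little in their median. The median log2 fold change was 0.34 in complex II, 0.46 in complex III, 0.47 in complex IV and 0.44 in complex V, and Cycs had 0.78. Values ranged from 0.24 to 0.35 in complex II, from 0.35 to 0.62 in complex III and from 0.08 to 0.73 in complex V. In complex IV they ranged from -1.70 to 1.42. The SD over genes was 0.05, 0.09 and 0.17 in complexes II, III and V and 0.70 in complex IV. Without HE3 the medians were 0.18 for II, 0.31 for III, 0.33 for IV, 0.24 for V and 0.39 for Cycs. As the complexes share the same 6 samples and their ranges overlap, no order among them was tested.

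**Figure D2:**
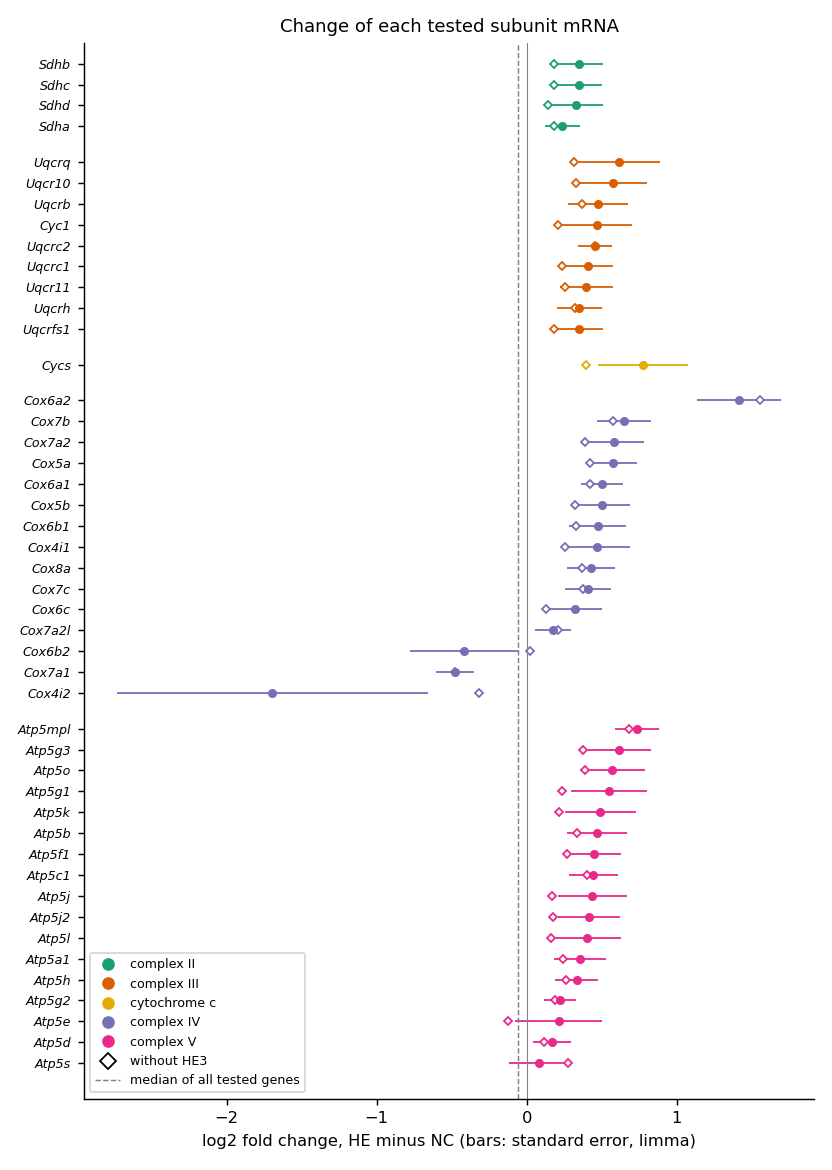
Log2 fold change of each of the 46 tested members, HE minus NC on the log2(RPKM + 0.1) scale, ordered within each complex. Filled points with bars are the estimate and its standard error (limma, 3 against 3), open diamonds the value without HE3, and the dashed line the median of all tested genes (-0.06). Nearly all points lie right of 0, and Cox6b2, Cox7a1 and Cox4i2 of complex IV lie left of it.

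In complex II the 4 subunits were close to each other in level and in difference. Sdha, the flavoprotein that oxidizes succinate (chr13:74322255-74350240), measured 86.5, 86.7 and 103 RPKM in NC1 to NC3 and 104, 105 and 117 RPKM in HE1 to HE3. Sdhb, the iron-sulfur subunit, measured 102, 109 and 111 RPKM in NC and 124, 118 and 173 RPKM in HE. Both were higher in every HE sample, Sdha by a narrow margin over NC3. Sdhc, a membrane anchor, measured 56.7, 60.0 and 64.1 RPKM in NC and 67.3, 69.4 and 96.1 RPKM in HE. Sdhd, the other anchor, measured 108, 115 and 122 RPKM in NC and 136, 118 and 187 RPKM in HE, and HE2 lay within the NC range. The log2 fold changes were 0.24 ± 0.12 (SE) for Sdha, 0.35 ± 0.16 for Sdhb, 0.35 ± 0.16 for Sdhc and 0.33 ± 0.18 for Sdhd. None passed an unadjusted p of 0.05 in limma, and without HE3 they were 0.18, 0.18, 0.18 and 0.14.

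In complex III all 9 members had a higher mean in HE, 4 at an unadjusted p under 0.05 (44.4%, against 8.68% of all tested genes). The groups did not overlap in 6 (66.7%), HE above, against 14.8% of all tested genes. The core protein Uqcrc2 (chr7:120635189-120659523) measured 27.0, 27.9 and 32.0 RPKM in NC and 42.2, 37.3 and 39.7 RPKM in HE. Every HE sample stood above NC3, and HE3 was not the highest. Its log2 fold change was 0.46 ± 0.11 (limma, adjusted p = 0.195) and 0.46 without HE3. The partner core protein Uqcrc1 measured 73.5, 72.6 and 77.1 RPKM in NC and 82.9, 92.9 and 126 RPKM in HE, a log2 fold change of 0.41 that was 0.24 without HE3.

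The most abundant mRNAs of complex III were those of small supernumerary subunits. Uqcr11 measured 415, 454 and 499 RPKM in NC and 570, 517 and 730 RPKM in HE. Uqcr10 measured 357, 387 and 432 RPKM in NC and 504, 478 and 816 RPKM in HE. In both the groups did not overlap and HE3 was highest. Their log2 fold changes were 0.40 ± 0.18 and 0.57 ± 0.23, and 0.25 and 0.33 without HE3. Uqcrh, the hinge protein near the cytochrome c docking site, measured 186, 184 and 233 RPKM in NC and 278, 224 and 265 RPKM in HE, so HE2 lay below NC3. The other 4 members, Cyc1 (cytochrome c1, which hands electrons to cytochrome c), Uqcrfs1 (the Rieske iron-sulfur protein), Uqcrb and Uqcrq, had log2 fold changes of 0.47, 0.35, 0.48 and 0.62, and of 0.21, 0.18, 0.37 and 0.32 without HE3. Uqcrb and Uqcrq were listed at only 10.7 and 16.2 RPKM in NC, the lowest levels of the complex, and Uqcrq overlaps Gdf9 in the annotation.

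Cycs (chr6:50562563-50566569), the carrier between complexes III and IV and a trigger of apoptosis when released, had the largest log2 fold change outside complex IV. It measured 25.3, 24.4 and 28.1 RPKM in NC and 34.8, 33.3 and 75.4 RPKM in HE. All HE samples were above NC3, and HE3 stood far above HE1 and HE2. The log2 fold change was 0.78 ± 0.30 (limma, adjusted p = 0.225), and 0.39 without HE3.

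Complex IV held the most members at an unadjusted p under 0.05, 9 higher and 1 lower among 15 tested. Of all tested genes 8.68% were higher and 11.8% lower at this level. The ubiquitous subunits of complex IV differed by similar amounts. In 11 of them, Cox4i1, Cox5a, Cox5b, Cox6a1, Cox6b1, Cox6c, Cox7a2, Cox7a2l, Cox7b, Cox7c and Cox8a, log2 fold changes ran from 0.17 to 0.65 with a median of 0.47. The groups did not overlap in 9 (81.8%), HE above, against 14.8% of all tested genes. The other 7 are paralogs that are known mainly from muscle, lung or testis, a division made after the values were seen. Of these 4 were tested, with a median log2 fold change of -0.45 and values from -1.70 to 1.42. The summed level of the 4 tested paralogs was 71.3 to 80.8 RPKM in NC, 72.3 in HE1, 66.3 in HE2 and 29.5 in HE3. That of the 11 was 2422 to 2967 RPKM in NC and 3193 to 4143 RPKM in HE.

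Among the ubiquitous subunits, Cox8a, a small membrane subunit, had the highest level of all members. It measured 560, 543 and 676 RPKM in NC and 780, 746 and 857 RPKM in HE. Cox6a1 (chr5:115345652-115348958) measured 278, 267 and 321 RPKM in NC and 382, 390 and 455 RPKM in HE. In both genes every HE sample exceeded NC3. Cox6a1 had a log2 fold change of 0.50 ± 0.14 (limma, adjusted p = 0.195), and 0.42 without HE3, and Cox8a had 0.43 ± 0.16, and 0.37 without HE3. Cox6b1, which faces the intermembrane space at the cytochrome c site, measured 310, 332 and 401 RPKM in NC and 470, 400 and 588 RPKM in HE, with HE2 just under NC3. Cox7b measured 103, 99.3 and 140 RPKM in NC and 189, 149 and 195 RPKM in HE, a log2 fold change of 0.65 ± 0.18 and the largest among the 11. Cox7a2l, a factor that links complexes III and IV in supercomplexes, had the smallest, 0.17 ± 0.12, with 249, 227 and 257 RPKM in NC and 286, 277 and 263 RPKM in HE.

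Of the 4 tested paralogs of complex IV, Cox4i2, Cox7a1 and Cox6b2 had lower means in HE, unlike their ubiquitous counterparts. Cox6a2 was higher, as was Cox6a1. Cox4i1 measured 241, 253 and 323 RPKM in NC and 315, 331 and 502 RPKM in HE. Its paralog Cox4i2 (ENSMUSG00000009876, chr2:152753916-152765039), known from lung and from the response to low oxygen, measured 29.4, 21.1 and 23.6 RPKM in NC and 20.1, 19.1 and 1.03 RPKM in HE. HE1 and HE2 lay just under the lowest NC sample, and HE3 lay far below all others. Per 100 RPKM of Cox4i1, the level of Cox4i2 was 12.2, 8.34 and 7.33 in NC and 6.38, 5.78 and 0.204 in HE. Its log2 fold change was -1.70 ± 1.04 (limma, adjusted p = 0.351), and -0.32 without HE3, so the size rests on this sample. Cox4i2 overlaps Bcl2l1 and Gm32057 in the annotation.

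Cox7a1 (ENSMUSG00000074218, chr7:30184171-30186030), the heart and skeletal muscle isoform, was lower in HE with or without HE3. It measured 17.4, 20.7 and 15.9 RPKM in NC and 13.3, 12.4 and 12.8 RPKM in HE, so that the groups did not overlap and the HE samples lay close together. The log2 fold change was -0.48 ± 0.13 (limma, adjusted p = 0.195) and -0.48 without HE3. The ubiquitous paralog Cox7a2 measured 171, 173 and 211 RPKM in NC and 264, 220 and 362 RPKM in HE, a log2 fold change of 0.58 ± 0.20. Per 100 RPKM of Cox7a2, Cox7a1 stood at 10.2, 11.9 and 7.52 in NC and 5.03, 5.65 and 3.53 in HE. The ratio was lower in every HE sample, since the paralogs differed in opposite directions.

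Cox6a2 (ENSMUSG00000030785, chr7:128205435-128206366), also a heart and skeletal muscle isoform, was at trace level and was higher in HE. It measured 1.33, 0.768 and 0.699 RPKM in NC and 2.46, 3.24 and 2.10 RPKM in HE. The groups did not overlap, and HE3 was the lowest HE sample. The log2 fold change was 1.42 ± 0.28 (limma, adjusted p = 0.195) and 1.55 without HE3. It overlaps Itgad and stayed below 1 RPKM per 100 RPKM of Cox6a1 in every sample. Cox6b2, the testis isoform of Cox6b1, measured 32.1, 28.8 and 40.5 RPKM in NC and 36.5, 31.5 and 13.6 RPKM in HE. Its log2 fold change of -0.42 ± 0.36 was 0.020 without HE3, so the direction rests on HE3. The muscle isoform Cox8b, not tested, measured 1.62, 1.01 and 2.33 RPKM in NC and 0.463, 0.869 and 1.20 RPKM in HE. Of the testis isoforms, Cox8c was listed at no more than 0.220 RPKM and Cox7b2 at 0 in all samples.

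**Figure D3:**
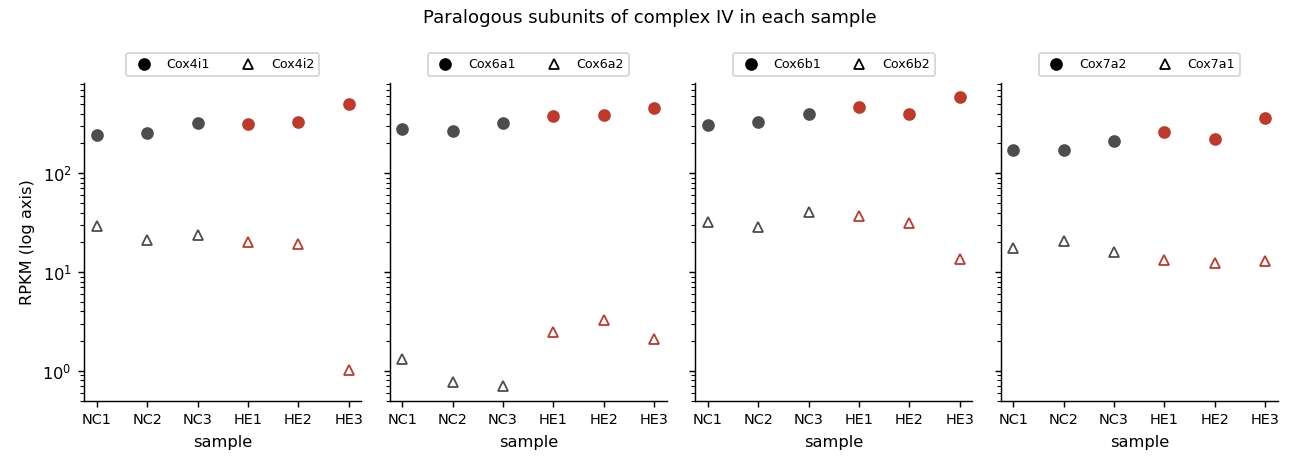
RPKM (log axis) of 4 ubiquitous complex IV subunits (filled circles) and of their tissue-restricted paralogs (open triangles) in the 3 NC (grey) and 3 HE (red) samples. The circles are highest in HE3 in all panels, whereas Cox4i2 is at 1.03 RPKM and Cox6b2 at 13.6 RPKM in HE3, Cox7a1 is lower in every HE sample and Cox6a2 higher in every HE sample.

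In complex V all 17 members had a higher mean in HE, 6 at an unadjusted p under 0.05 (35.3%, against 8.68% of all tested genes). The groups did not overlap in 9 (52.9%), HE above, against 14.8% of all tested genes. The catalytic beta subunit Atp5b (chr10:128083307-128090388) measured 420, 397 and 556 RPKM in NC and 556, 586 and 755 RPKM in HE, and HE1 equalled NC3 within rounding. The alpha subunit Atp5a1 measured 382, 358 and 465 RPKM in NC and 468, 476 and 599 RPKM in HE. For both, NC3 stood above NC1 and NC2 and reached nearly to HE1. The log2 fold changes were 0.47 ± 0.20 and 0.36 ± 0.17, and 0.33 and 0.24 without HE3. The 5 subunits of the F1 head (Atp5a1, Atp5b, Atp5c1, Atp5d and Atp5e) had a median of 0.36, and the other 12 genes had 0.44. Atp5e, the epsilon subunit, was higher in HE only through HE3, with a log2 fold change of 0.21 that was -0.13 without it.

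Of the membrane part, Atp5l (subunit g) measured 332, 347 and 403 RPKM in NC and 418, 389 and 664 RPKM in HE. HE2 lay under NC3, and the log2 fold change was 0.40 ± 0.23, and 0.16 without HE3. Atp5mpl (ENSMUSG00000021290, chr12:111961374-111967009), a small proteolipid bound to the synthase, had the lowest p of the complex. It measured 12.7, 13.6 and 14.8 RPKM in NC and 25.7, 18.8 and 24.4 RPKM in HE. All HE samples were above all NC samples, and HE1 was the highest. The log2 fold change was 0.73 ± 0.15 (limma, adjusted p = 0.195) and 0.68 without HE3. Atp5s, which bears the name but is not a structural subunit, had the smallest difference of the 17, 0.08 ± 0.20, but 0.27 without HE3.

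Subunit c, whose ring turns in the membrane, is encoded by 3 genes that yield the same mature protein. Atp5g2 measured 135, 128 and 142 RPKM in NC and 156, 152 and 165 RPKM in HE. Atp5g3 measured 71.9, 66.9 and 82.6 RPKM in NC and 92.9, 98.0 and 157 RPKM in HE. Atp5g1 measured 23.0, 21.6 and 23.9 RPKM in NC and 26.3, 27.4 and 51.6 RPKM in HE. In all 3 genes the groups did not overlap, and HE3 was the highest sample. Atp5g2 had the smallest log2 fold change, 0.22 ± 0.11, against 0.62 ± 0.21 for Atp5g3 and 0.55 ± 0.25 for Atp5g1. Without HE3 these were 0.19, 0.38 and 0.23. The share of Atp5g2 in the summed RPKM of the 3 genes was 58.8%, 59.2% and 57.1% in NC and 56.7%, 54.7% and 44.1% in HE. That of Atp5g3 was 31.2%, 30.9% and 33.2% in NC and 33.8%, 35.4% and 42.1% in HE. These shares were shifted slightly in HE1 and HE2 and more in HE3.

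The other members of the complex, Atp5c1, Atp5d, Atp5f1, Atp5h, Atp5j, Atp5j2, Atp5k and Atp5o, had log2 fold changes from 0.17 (Atp5d) to 0.57 (Atp5o, the stalk protein that confers oligomycin sensitivity). Atp5j was listed at 8.15 RPKM in NC and overlaps Gabpa. Of genes that later received Atp5 names but carry older ones in the table, Atpif1, the inhibitor of ATP hydrolysis by the synthase, measured 19.8, 19.5 and 26.5 RPKM in NC and 36.2, 26.3 and 26.4 RPKM in HE. HE2 and HE3 lay just under NC3, and the log2 fold change was 0.43 ± 0.18. Usmg5 measured 113, 128 and 122 RPKM in NC and 149, 131 and 221 RPKM in HE, a log2 fold change of 0.43 ± 0.20 that was 0.21 without HE3.

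Over all genes the fold change varied with gene length and with level. The median log2 fold change was 0.20 in the 435 tested genes under 1000 bases, 0.04 in the 1748 from 1000 to 2000 bases, -0.03 in the 4567 from 2000 to 4000 bases, -0.08 in the 5092 from 4000 to 8000 bases and -0.14 in the 2110 above. The members' medians in the first 4 bins were 0.48 (14 genes), 0.35 (17), 0.41 (11) and 0.46 (4), above that of all genes in each. Among the 504 genes with a mean of at least 100 RPKM the median was 0.22, and the 25 members among them had 0.43. With the length trend of each sample removed, the members' median was 0.37 against 0.01 over all genes, 14 were higher at an unadjusted p under 0.05 (9.71% of all genes) and the groups did not overlap, HE above, in 19 (16.4% of all genes). The part of length and level in the members' difference was not tested beyond these values.

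**Figure D4:**
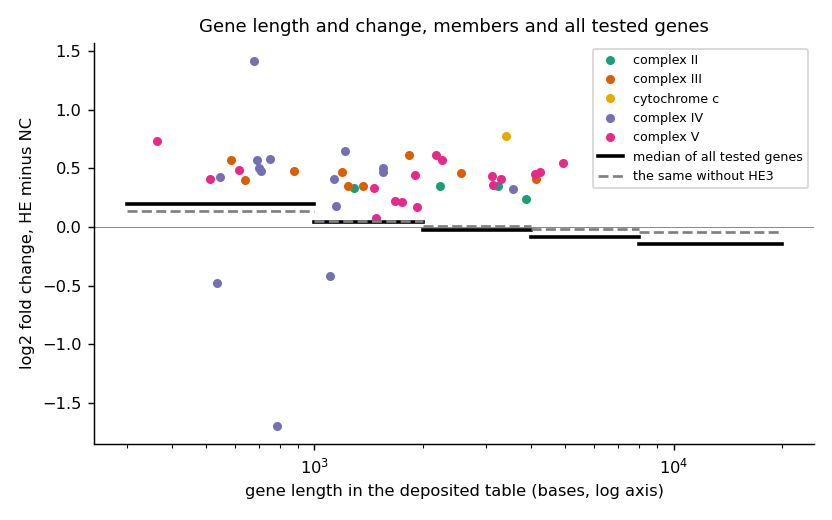
Log2 fold change (HE minus NC) of the 46 tested members against gene length (log axis), coloured by complex. Black lines are medians of all tested genes in bins bounded at 1000, 2000, 4000 and 8000 bases (the outer bins are drawn to the edge of the plot), dashed grey lines the same without HE3. The black line steps down from 0.20 to -0.14, and most members lie above it at every length.

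Other mitochondrial gene lists were set beside the members. In the tricarboxylic acid cycle, 13 of 13 tested genes were higher, 11 at an unadjusted p under 0.05, with a median log2 fold change of 0.43. Fumarase (Fh1) had 24.4 RPKM in NC and 39.4 RPKM in HE, a log2 fold change of 0.67 ± 0.19. Of 36 complex I subunits tested, 35 were higher, 20 at an unadjusted p under 0.05, with a median of 0.39. Of 16 import and channel genes, 14 were higher, 7 at that level, with a median of 0.36. The genes higher at an unadjusted p under 0.05 were 84.6%, 55.6% and 43.8% of these 3 lists, against 8.68% of all tested genes. Without HE3 the medians of the 3 lists were 0.31, 0.26 and 0.21. Among the import and channel genes the outer membrane channel Vdac2 had 37.0 RPKM in NC and 54.0 RPKM in HE, and the chaperonin Hspd1 had 75.0 RPKM and 110.1 RPKM. None of these genes passed an adjusted p of 0.05 in limma.

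The factors that assemble the complexes were compared by their medians. The median log2 fold change was 0.24 for the 4 assembly factors of complex II, 0.14 for the 6 tested of complex III, 0.23 for the 23 of complex IV and 0.13 for the 5 of complex V, each below that of the subunits. Without HE3 these medians were 0.24, 0.09, 0.12 and 0.10, so that for complex II the factors stood above the subunits (0.18). At an unadjusted p under 0.05 these lists held 0, 1, 2 and 0 genes higher, and 1 lower. The higher genes were 0%, 16.7%, 8.70% and 0% of the lists, against 8.68% of all tested genes, while 11.8% of all genes were lower. Higher were Uqcc1 of complex III (0.34 ± 0.14), and Cmc2 (0.68 ± 0.25) and Taco1 (0.26 ± 0.10), an activator of Cox1 translation, of complex IV. The lower gene was Cox17, the copper chaperone of complex IV, with a low mean of 0.576 RPKM in NC against 0.325 RPKM in HE and a log2 fold change of -0.69 ± 0.25. Regulators of mitochondrial gene expression, with Ppargc1a, Tefm and Lrpprc among them, had a median of 0.07, 13 of 19 higher and 0 at an unadjusted p under 0.05. The coactivator Ppargc1a measured 2.12, 1.57 and 2.58 RPKM in NC and 2.77, 2.48 and 3.48 RPKM in HE, and the groups overlapped. These lists also had lower levels than the subunits. Median NC levels were 3.99, 7.51, 6.92 and 17.1 RPKM for the factors of complexes II to V and 4.78 RPKM for the regulators. Those of the subunits were 99.6, 77.5, 185 and 99.7 RPKM. Over all tested genes the median log2 fold change was -0.10 at 1 to 10 RPKM, -0.003 at 10 to 50, 0.09 at 50 to 100 and 0.22 from 100 RPKM. The difference between these lists and the members, and the part of level in it, was not tested.

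**Figure D5:**
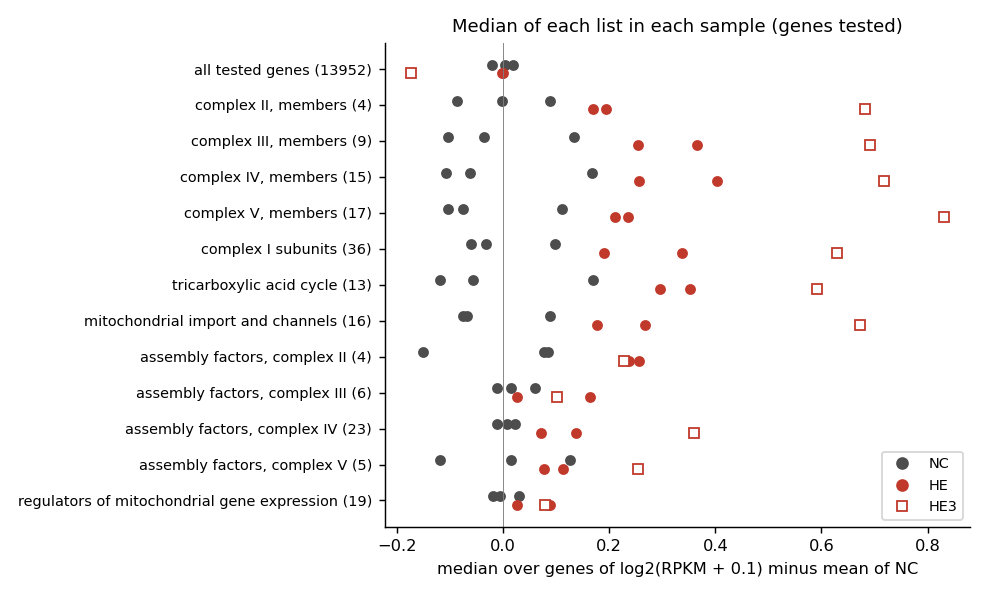
Median over the tested genes of each list of log2(RPKM + 0.1) minus the NC mean, in each sample, with the number of genes in brackets. Grey points are NC, red points HE1 and HE2, open squares HE3. Members of complexes II to V, complex I subunits, the tricarboxylic acid cycle and import genes lie right of all NC points in every HE sample. So do the assembly factors of complexes II and IV, whereas regulators stay near 0 and all tested genes lie at -0.17 in HE3.

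The subunits from mitochondrial DNA could not serve as a counterpart. Of 13 such genes, 7 were tested, and mt-Co2, mt-Co3, mt-Atp6 and mt-Nd4l were listed at or near 0 in every sample, although they are abundant in most cells. Of complexes III to V, mt-Co1 of complex IV measured 162, 154 and 185 RPKM in NC and 316, 230 and 198 RPKM in HE. mt-Cytb of complex III measured 9.73, 8.68 and 9.92 RPKM in NC and 7.57, 9.21 and 5.49 RPKM in HE. These values point in opposite directions, and how reads of mitochondrial DNA were counted is not given in the sources used here.

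Markers of other cell types were measured beside these values. Of the neural progenitor list, 8 of 10 genes had a negative log2 fold change (median -0.33, and -0.17 without HE3), and Sox2 measured 209, 209 and 195 RPKM in NC and 176, 172 and 97.3 RPKM in HE. The median was 0.16 (0.06 without HE3) over 10 neuron markers, whose summed level was 117 to 149 RPKM in NC, 146 and 136 in HE1 and HE2 and 276 in HE3, of which Gap43 made up 202. It was -0.24 over 8 astrocyte markers, with sums of 1548 to 1927 RPKM in NC and 1122 to 1588 RPKM in HE, and -0.26 (0.11 without HE3) over 8 oligodendrocyte lineage markers, with sums of 291 to 321 RPKM and 315 to 515 RPKM. HE3 had the lowest Gfap, Sox10 and Mbp and the highest Olig1. Of the astrocyte markers 5 had a negative and 3 a positive log2 fold change. Among the latter was S100b (0.92), whose HE values all exceeded its NC values. The tested mesenchymal markers summed to 63.1 to 157 RPKM in NC and 98.3 to 209 RPKM in HE, with 6 of 7 higher. Their median log2 fold change was 0.65, and 1.13 without HE3. Relative to the NC mean, their median was 0.83, -0.60 and -0.09 in NC1 to NC3 and 1.20, 1.06 and 0.02 in HE1 to HE3. Microglia (3 of 8 tested, median 0.32), endothelial (4 of 8, 0.25) and red blood cell markers (1 of 8, -0.65) were near the detection limit, with summed levels of tested genes up to 2.43, 5.39 and 0.696 RPKM, and Hba-a2 and Hbb-y were at 0. Other globins were seen in HE3, where Hba-a1 was at 1.99 RPKM and Hbb-bs at 1.80 RPKM, against 0 in all NC samples. The endothelial Cdh5 measured 0.708, 0.341 and 0.755 RPKM in NC and 2.75, 1.66 and 1.95 RPKM in HE, and the microglial C1qb 0.0979, 0 and 0 RPKM in NC and 1.13, 0.578 and 2.00 RPKM in HE. In both the groups did not overlap. They overlapped in the other tested markers of these lists, Kdr, Flt1, Erg, Csf1r and Cx3cr1, with log2 fold changes of 0.55, -0.20, -0.05, 0.22 and 0.32. C1qa, not tested, was at 0, 0 and 0.0508 RPKM in NC and 0.967, 0.252 and 3.17 RPKM in HE. Untested too, C1qc was at 0.0276, 0 and 0.0273 RPKM in NC and 0.723, 0.163 and 1.03 RPKM in HE. In C1qa, C1qc and Trem2 (up to 0.0320 RPKM in NC, from 0.0424 RPKM in HE) the groups did not overlap. Ptprc, not tested, had a mean of 0.00192 RPKM in NC and 0.0302 RPKM in HE, with HE2 within the NC range. Aif1, also not tested, had a mean of 0.138 RPKM in NC and 0.123 RPKM in HE. The part of these markers, and of HE3, in the higher level of the subunits was not tested.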

How the data were processed

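The series holds RNA-Seq of 3 HE and 3 NC samples. Per the labels and the methods, the authors discarded poor reads, mapped the rest on mm10 with TopHat2, and counted reads per gene. Base calling used CASAVA 1.7. The counting tool, its strand setting and the gene annotation are not given in the sources used here. The deposited table holds raw read counts and the RPKM that the authors derived from count, gene length and sample total. The RPKM differed from this formula by at most 4.99e-07. Large counts are written with commas and were recorded under the unit "other", so a count model was not made the main test. The counts served for the filter, the depth, the median-of-ratios scaling and voom.

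Differences were tested with limma 3.58.1 (R 4.3.3) on log2(RPKM + 0.1), with trended variance, group as the only term and Benjamini-Hochberg adjustment over 13952 genes with at least 15 reads in all and the filter named above. Fold changes are on this scale, which understates changes of low genes. Thresholds were an adjusted p of 0.05 and a log2 fold change of 1. The fit was tested on simulated data. At 16078675 to 19137059 reads per sample, 1 read on a 1-kilobase gene is 0.0523 to 0.0622 RPKM, a limit that covers counting error only.

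Symbols were found for 21781 of 22048 identifiers. Coordinates and promoters come from RefSeq (GRCm38.p6). Described in full were complex II, Cycs, in each of complexes III, IV and V the 3 members of highest level and the 2 of lowest p, members with the sign opposite to their complex, the inhibitor and the isoform pairs, and from each comparison list at most 3 genes of lowest p, of which some are shown. Genes of the marker lists, Cox17, mt-Cytb and the remaining members were picked with their values in view. The members and lists were chosen with earlier results of these data known. Alternatives were a pseudocount of 1, no filter, at least 10 reads in every sample, median-of-ratios scaling, voom, removal of the length trend, the replicate number as a block, sample weights and each sample left out in turn. The count of members at an adjusted p under 0.05 and the bins of level were added after seeing the data.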

Additional observations from a re-analysis of the deposited data

How the results depend on the processing

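Across 14 alternatives, 385 of 391 fold changes of the 28 named tested members kept their direction and their side of an adjusted p of 0.05 (limma). Cox6b2 reversed from -0.42 to 0.020 without HE3, within a range of -0.69 to 0.020 when single samples were left out. With sample weights, which gave HE3 a weight of 0.158, 5 members passed an adjusted p of 0.05 (added after seeing the data), namely Uqcrc2, Cox6a1, Cox6a2, Cox7a1 and Atp5mpl, as did 876 of all 13952 genes, and calls over all genes at a log2 fold change of at least 1 went from 0 to 268. Those calls ranged from 0 to 103 with single samples left out, the 103 arising without NC3. With sample weights the members' median was 0.27 instead of 0.43, and those of complexes II, III, IV and V were 0.20, 0.27, 0.33 and 0.26, with 0.42 for Cycs. The count of members higher at an unadjusted p under 0.05 (20) ranged from 6 (without NC1 or NC2) to 26 (without HE2) when samples were left out, was 15 under median-of-ratios scaling, which moved the median of all genes from -0.06 to 0.00, and 14 with the length trend removed, while 9.38% and 9.71% of all genes were. Members with every HE value above every NC value went from 29 to 19 with the length trend removed. The group labels share replicate numbers, but samples of the same number correlated by only 0.156, 0.0869 and 0.0603 in their deviations, so the numbers were not taken as pairs. With the replicate block 31 members and 8.75% of all genes were higher at an unadjusted p under 0.05, and no member passed an adjusted p of 0.05. Depth limits the trace isoforms Cox6a2, Cox8b and Cox8c, and the number of samples limits all p-values.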
